A study of Mus musculus with 4 samples.

Results

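The common gamma chain cytokine receptors were followed across arrays of regulatory T cells of the mouse (Treg cells), the Foxp3-expressing CD4 subset that holds back immune responses. The genes were the receptor chains for IL-2, IL-4, IL-7, IL-9, IL-15 and IL-21: Il7r, Il2ra, Il2rb, Il2rg, Il4ra, Il9r, Il15ra and Il21r. Members were chosen by name, as every probe set (a group of short probes read as 1 signal) that the platform annotation assigns to 1 of these symbols. This gave 13 of the 45037 probe sets that are not array controls, for 7 of the 8 genes, out of 18193 gene symbols named on the array. No probe set is assigned to Il2rg, the shared gamma chain itself, in the annotation used here, so Il2rg was not analysed here.

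The series holds 4 arrays of spleen Treg cells from C57BL/6 mice, 2 labelled Foxo1/3-deficient and 2 labelled wild-type, numbered as pair 1 and pair 2 with 1 array of each label. The titles of the first group name Foxo1 and Foxo3, which encode transcription factors restrained by the PI3K and AKT pathway, while its genotype field names Foxo1 alone. How and in which cells the genes were deleted, and the age of the animals, are not given in the labels. Separate animals are not stated for the arrays sharing a label, and the p-values thus measure only the spread between these arrays, which may be technical. Total RNA was labelled with biotin, per the labels, and the deposited values are MAS5 signals on a linear scale.

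Receptors of this family share the gamma chain encoded by Il2rg and pair it with a private chain that decides which cytokine is bound. Binding activates the kinases JAK1 and JAK3 and then STAT transcription factors, chiefly STAT5 for IL-2, IL-7 and IL-15, STAT6 for IL-4 and STAT3 for IL-21. Treg cells are known for abundant IL-2 receptor alpha chain (CD25) and little IL-7 receptor alpha chain (CD127), and FoxO1 is known in mouse T cells as an activator of Il7r.

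The promoter letters of 3 members are shown because Il7r is the gene that passed the test below, and because Il21r and Il4ra are the members whose windows held a forkhead motif, the kind FoxO proteins bind. Windows run from 250 bases before to 50 bases after the gene's start, from RefSeq on GRCm38.p6, and 7 of the 8 genes matched that table, in 8 windows. The motifs searched, on both strands, were GTAAACA and GTAAATA (forkhead), CAGGAAG (ETS) and TTCNNNGAA (STAT). Capitals mark matches.
Il7r, chr15:9529827-9530126, minus strand: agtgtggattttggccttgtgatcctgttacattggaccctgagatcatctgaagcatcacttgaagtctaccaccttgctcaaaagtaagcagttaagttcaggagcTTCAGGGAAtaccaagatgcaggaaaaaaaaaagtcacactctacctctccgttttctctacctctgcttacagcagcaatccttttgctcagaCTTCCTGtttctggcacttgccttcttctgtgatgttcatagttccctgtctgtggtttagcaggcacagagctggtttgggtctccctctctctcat
Il21r, chr7:125603179-125603478, plus strand: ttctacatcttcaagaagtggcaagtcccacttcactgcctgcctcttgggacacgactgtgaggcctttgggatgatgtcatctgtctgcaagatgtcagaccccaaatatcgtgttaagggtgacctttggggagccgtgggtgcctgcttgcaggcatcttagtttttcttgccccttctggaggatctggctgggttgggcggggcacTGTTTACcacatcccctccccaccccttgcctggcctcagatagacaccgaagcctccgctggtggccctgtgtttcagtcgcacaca
Il4ra, chr7:125552021-125552320, plus strand: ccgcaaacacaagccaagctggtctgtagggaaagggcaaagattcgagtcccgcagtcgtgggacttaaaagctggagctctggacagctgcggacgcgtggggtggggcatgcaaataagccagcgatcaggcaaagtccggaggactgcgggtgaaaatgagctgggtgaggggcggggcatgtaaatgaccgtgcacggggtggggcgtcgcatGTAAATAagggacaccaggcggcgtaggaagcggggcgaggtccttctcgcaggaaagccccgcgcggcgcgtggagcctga
In the Il7r window, bases 109 to 117 matched the STAT motif, and bases 203 to 209 matched the ETS motif in reverse. In the Il21r window, bases 213 to 219 matched GTAAACA in reverse, and in the Il4ra window, bases 219 to 225 matched GTAAATA. Of 32851 windows of the same length in the table, 3.65% held GTAAACA, 3.04% GTAAATA, 13.3% CAGGAAG and 8.3% TTCNNNGAA. These matches describe letters only.

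Before any comparison, the targeted genes were read as a check of the labels, and Foxo1 went against them. Its brightest probe set, 1416983_s_at, read 6949 and 6697 on the arrays labelled Foxo1/3-deficient, against 2383 and 1254 on the wild-type arrays. This was 3.91-fold higher on the labelled-deficient arrays (log2 1.97 ± 0.30, SE; limma adjusted p = 0.028), and without labelled-deficient replicate 1 it narrowly missed the threshold (0.05002). The other 2 kept Foxo1 probe sets were 4.57-fold and 4.64-fold higher (limma adjusted p = 0.0128 and 0.00839). Foxo3, on 1434831_a_at, read 1424 and 1308 on the labelled-deficient arrays, against 1876 and 2635 on the wild-type arrays (log2 -0.70 ± 0.25, limma adjusted p = 0.342). Its other kept probe set, 1434832_at, read 554 and 521 on the labelled-deficient arrays, against 861 and 1001 on the wild-type arrays. There the log2 difference was -0.77 ± 0.26 (limma adjusted p = 0.288). Both Foxo3 probe sets were lower without overlap, in the direction of the labels, and neither passed the threshold. Where these probe sets lie relative to the deleted parts is unknown here, and whether the labels were exchanged was not tested. An exchange would turn every direction below, that of Il7r included, so each is given only as the arrays are labelled.

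Log2 signals of different arrays correlated across probe sets with Pearson r between 0.960 and 0.972. The Treg identity of the RNA was read from marker lists. Foxp3 read 6504 and 6056 on the labelled-deficient arrays, against 6540 and 6285 on the wild-type arrays, and 0 of 6 T cell and Treg markers passed the test. B cell markers summed over 4 named genes to 2603 and 1675 on the labelled-deficient arrays, against 2236 and 755 on the wild-type arrays. Myeloid markers summed over 5 genes to 9309 and 6944 on the labelled-deficient arrays, against 6641 and 4254 on the wild-type arrays. Single bright genes were the largest part of each sum, with Ms4a1 at 1611 and Csf1r at 6676 on labelled-deficient replicate 1. In pair 1 Cd79a, Cd79b, Lyz2 and the dim Itgam ran the other way. Cd79b read 784 on the labelled-deficient array, against 941 on the wild-type array, and Lyz2 read 772, against 942. The remaining named genes, Adgre1, Cd14 and the dim Pax5, ran with the sums in pair 1. Adgre1 read 1538 on the labelled-deficient array, against 691 on the wild-type array, and Cd14 read 297, against 229. In pair 2 the dim Itgam ran the other way, at 1.78 on the labelled-deficient array, against 36.1 on the wild-type array. Lyz2 was nearly level there, at 613, against 611. With the pair as a block, Ms4a1 (limma adjusted p = 0.0456) and Adgre1 (0.0152) were called higher. Natural killer cell markers summed over 4 named genes to 547 and 663 on the labelled-deficient arrays, against 1369 and 1721 on the wild-type arrays, and 1 of the 2 tested, Eomes, was called lower. Its transcription factor is also made by some T cells, and the part of these markers in the results was not tested. The defining natural killer cell genes Ncr1 and Klra8 were under the filter on dim signals, with no signal above 37.2. CD8 T cell markers gave 0 calls among 2 genes tested. Innate lymphoid cell markers gave 0 among 3, though Rora was called lower with the block (limma adjusted p = 0.0128).

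**Figure D1:**
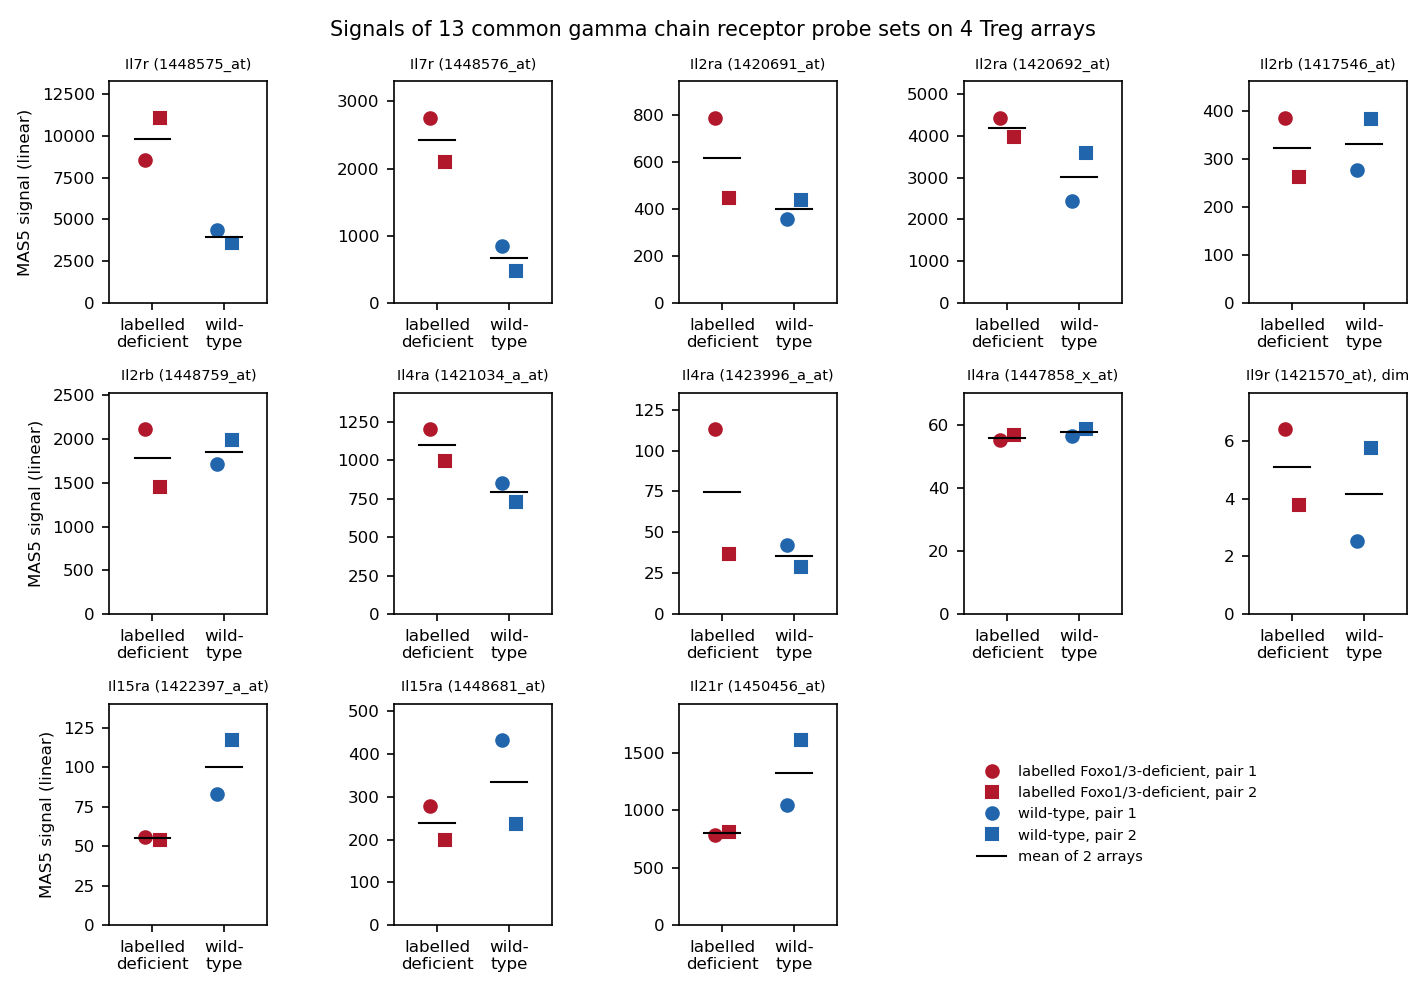
MAS5 signal (linear axis from 0) of each of the 13 probe sets on the 4 arrays, with the labelled Foxo1/3-deficient arrays left of the wild-type arrays; circles are pair 1, squares pair 2, and bars the mean of 2 arrays. Both Il7r panels show the labelled-deficient arrays well above the wild-type arrays, while the Il2rb panels show arrays of both labels interleaved.

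The comparison of labels asked which receptor transcripts differ with the label. Il7r was higher on the labelled-deficient arrays on both of its probe sets, and no other member passed the test. A probe set was tested if its mean log2 signal over the 4 arrays reached the 40th percentile (a signal of about 40.5), which kept 12 of the 13 members and 27022 probe sets in all. Il9r was the member left out. Signals were compared as log2(signal + 17) with limma, adjusted over all kept probe sets, with a threshold of 0.05. Of the 12 members, 2 were called higher and 0 lower, where 1.16% of all kept probe sets were called, 0.633% as higher and 0.529% as lower. At an unadjusted p under 0.05 the members gave 3, against 10.6% of all kept probe sets. Their median log2 difference was 0.22, against 0.04 over all kept probe sets. With 2 arrays a group, an exact test could not give a p under 0.333, so each p leans on limma's shared variance model. In bulk RNA, fewer cells that express a gene and less RNA per cell cannot be told apart.

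Il7r encodes the IL-7 receptor alpha chain, the survival receptor of resting T cells. On its brightest probe set, 1448575_at, it read 8566 and 11045 on the labelled-deficient arrays, against 4362 and 3571 on the wild-type arrays. Each labelled-deficient array lay above both wild-type arrays. The difference was 2.46-fold (log2 1.30 ± 0.22, SE, 95% interval 0.80 to 1.80; limma adjusted p = 0.0386, n = 2 each).

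The second Il7r probe set, 1448576_at, read 2747 and 2104 on the labelled-deficient arrays, against 851 and 476 on the wild-type arrays. The groups did not overlap here either, and the difference was 3.70-fold (log2 1.89 ± 0.32, 95% interval 1.15 to 2.63; limma adjusted p = 0.0404). Only 0.625% of kept probe sets had a higher log2 difference than this one, and 1.85% had a higher one than 1448575_at. Both probe sets were also called with the pair as a block (limma adjusted p = 0.00386 and 0.000577), a fit that called 2 of the 12 members and 5.13% of kept probe sets, 2.52% as higher and 2.61% as lower. With 1 probe set per gene, the brightest of Il7r was called (0.0261), where 2.57% of genes were.

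The Il7r calls were close to the threshold. On 1448575_at the adjusted p was 0.0513 without labelled-deficient replicate 1, 0.157 without labelled-deficient replicate 2 and 0.0631 without wild-type replicate 2, and on 1448576_at it was 0.121 without labelled-deficient replicate 1 and 0.0642 without wild-type replicate 2 (limma). Without the filter both calls were lost (0.150 and 0.144), as they were without the intensity trend (0.161 and 0.119), though the log2 difference lay between 1.11 and 2.30 in the 12 alternatives tried. Beside Il7r, the summed B cell and myeloid markers given above were also higher on the labelled-deficient array of each pair. This did not hold gene by gene in either pair, and the part of these markers in the Il7r difference was not tested.

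**Figure D2:**
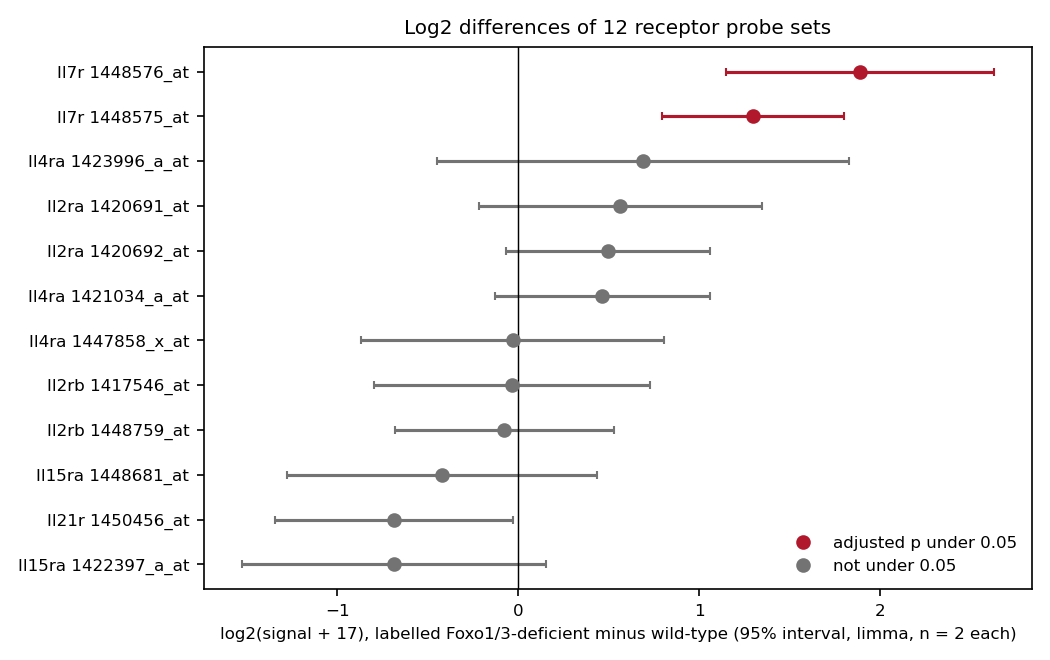
Log2 difference in signal, labelled Foxo1/3-deficient minus wild-type, for the 12 kept receptor probe sets, with 95% intervals from limma (n = 2 arrays each). The Il7r probe sets stand at 1.30 and 1.89, and the interval of Il21r, from -1.34 to -0.03, is the other one that leaves out 0.

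The IL-2 receptor chains did not pass. Il2ra encodes CD25, which raises the affinity of the receptor for IL-2, and its brightest probe set, 1420692_at, read 4416 and 3962 on the labelled-deficient arrays, against 2449 and 3584 on the wild-type arrays. Both labelled-deficient arrays lay above both wild-type arrays, by a small margin in pair 2. The log2 difference was 0.50 ± 0.25 (95% interval -0.07 to 1.06; limma adjusted p = 0.567). The dimmer probe set, 1420691_at, read 784 and 445 on the labelled-deficient arrays, against 355 and 439 on the wild-type arrays (log2 0.56 ± 0.34, 95% interval -0.22 to 1.34; limma adjusted p = 0.691). The groups did not overlap, but in pair 2 the arrays were nearly level, and the 784 of pair 1 stood apart.

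Il2rb encodes the beta chain that IL-2 and IL-15 receptors share and that carries much of the signal. On 1448759_at it read 2110 and 1447 on the labelled-deficient arrays, against 1711 and 1986 on the wild-type arrays. The wild-type arrays fell between the labelled-deficient ones, and the log2 difference was -0.08 ± 0.26 (95% interval -0.68 to 0.53; limma adjusted p = 0.977). On 1417546_at it read 386 and 263 on the labelled-deficient arrays, against 277 and 385 on the wild-type arrays (log2 -0.03 ± 0.33, 95% interval -0.79 to 0.73; limma adjusted p = 0.992). The second interval thus still allows a log2 difference anywhere from -0.79 to 0.73.

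Il15ra encodes the chain that binds IL-15 and presents it to neighbouring cells. On its brightest probe set, 1448681_at, it read 278 and 199 on the labelled-deficient arrays, against 432 and 237 on the wild-type arrays. The groups overlapped (log2 -0.42 ± 0.37, 95% interval -1.28 to 0.43; limma adjusted p = 0.843). The dimmer probe set, 1422397_a_at, read 56.0 and 54.1 on the labelled-deficient arrays, against 83.3 and 117 on the wild-type arrays. Here the labelled-deficient arrays lay below both wild-type arrays, at signals little above the filter (log2 -0.69 ± 0.37, 95% interval -1.53 to 0.15; limma adjusted p = 0.617).

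Il21r encodes the receptor for IL-21, a cytokine of follicular helper T cells, and has 1 probe set, 1450456_at. It read 787 and 810 on the labelled-deficient arrays, against 1041 and 1607 on the wild-type arrays. The groups did not overlap, and the wild-type arrays differed more from each other than the labelled-deficient ones did. The log2 difference was -0.69 ± 0.29 (95% interval -1.34 to -0.03). It passed 0.05 before adjustment only (limma adjusted p = 0.439).

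Il4ra encodes the alpha chain of the IL-4 receptor, which also serves IL-13. Its brightest probe set, 1421034_a_at, read 1199 and 996 on the labelled-deficient arrays, against 850 and 729 on the wild-type arrays. The groups did not overlap (log2 0.46 ± 0.26, 95% interval -0.13 to 1.06; limma adjusted p = 0.642). The probe set 1423996_a_at read 113 and 36.8 on the labelled-deficient arrays, against 42.2 and 28.6 on the wild-type arrays, so that 1 array carried its mean. The probe set 1447858_x_at read between 55.2 and 58.5 on all 4 arrays. Their log2 differences were 0.69 ± 0.49 and -0.03 ± 0.36 (limma adjusted p = 0.777 and 0.992).

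Il9r encodes the IL-9 receptor, and its probe set, 1421570_at, was dim everywhere. It read 6.40 and 3.77 on the labelled-deficient arrays, against 2.55 and 5.77 on the wild-type arrays. It lay under the filter and was not tested, and its groups overlapped.

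Over the 12 kept members, the groups did not overlap on 7, with the labelled-deficient arrays above on 5 and below on 2. Over all kept probe sets 38.3% did not overlap, 20.9% as higher and 17.5% as lower. The members' share of 58.3% is read beside that background as a description. For Il7r, Il2ra and Il2rb both probe sets of a gene gave the same sign of log2 difference, as did both of Il15ra, while those of Il4ra did not.

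Within the pairs, 10 of the 12 kept members had the same sign of log2 difference in both, and 2 had opposite signs, as 40.8% of all kept probe sets did. The Il7r difference was 0.97 in pair 1 and 1.62 in pair 2 on 1448575_at, and 1.67 and 2.10 on 1448576_at. The Il2ra differences lay mostly in pair 1, at 0.85 against 0.14 in pair 2 on 1420692_at and 1.11 against 0.02 on 1420691_at. Il21r stood at -0.40 in pair 1 and -0.97 in pair 2, and the Il4ra probe set 1421034_a_at at 0.49 and 0.44. Each pair has 1 array a label, so these values carry no test. Between pairs, with the label as a covariate, 0 of the 12 members were called, where 1.21% of kept probe sets were. The nearest to the threshold was Il7r 1448576_at, with a log2 difference of -0.60 ± 0.19 for pair 2 minus pair 1 (limma adjusted p = 0.170).

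**Figure D3:**
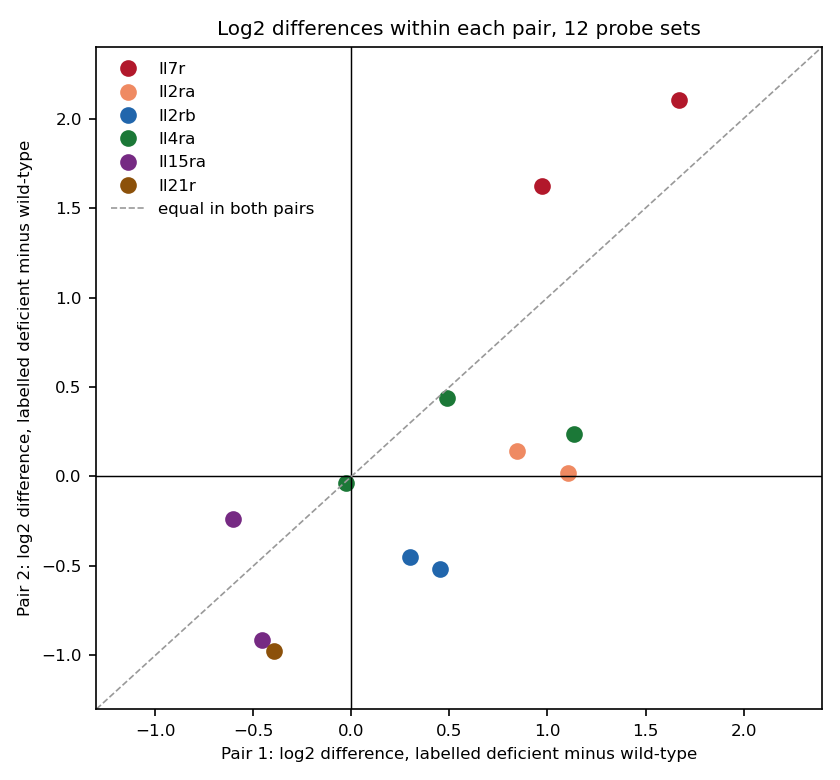
Log2 difference of each kept probe set in pair 1 (horizontal) and pair 2 (vertical), labelled Foxo1/3-deficient minus wild-type, 1 point per probe set. The Il7r points lie at the upper right, the Il2rb points at the lower right where the pairs disagree in sign, and Il21r and Il15ra at the lower left.

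Genes with a profile over the 4 arrays most like that of Il7r were sought from its brightest probe set, 1448575_at, alone. By the distance between mean-centred log2 profiles they were Fnbp1l (distance 0.07), Acss1 (0.11) and Resf1 (0.13), among 12114 other genes. With 4 arrays this likeness is a description of these arrays only. Acss1, which encodes a mitochondrial acetyl-CoA synthetase, read 1508 and 1937 on the labelled-deficient arrays, against 696 and 576 on the wild-type arrays. Resf1 read 4494 and 5227 on the labelled-deficient arrays, against 2220 and 1885 on the wild-type arrays, and Fnbp1l read 87.6 and 127 on the labelled-deficient arrays, against 37.2 and 28.6 on the wild-type arrays.

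Genes around the receptors were read from 6 lists, each gene at its brightest kept probe set. Over all 12115 genes read this way 1.68% were called, 0.801% as higher and 0.883% as lower, with a median log2 difference of -0.00. Over the 51 distinct genes tested, 4 were called higher and 1 lower. The 4 include Foxo1, which the labels name and which was already read above as their check.

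The ligands were mostly dim. Of 6 ligand genes, 3 passed the filter and 0 were called, with 1 at an unadjusted p under 0.05. Il2 read 56.6 and 28.9 on the labelled-deficient arrays, against 63.1 and 5.53 on the wild-type arrays, and Il7 and Il9 also lay under the filter. Il4 read 26.1 and 63.8 on the labelled-deficient arrays, against 74.8 and 145 on the wild-type arrays (log2 -1.05 ± 0.47, limma adjusted p = 0.485). Il21, named after its values were seen, read 8.23 and 80.5 on the labelled-deficient arrays, against 237 and 312 on the wild-type arrays. Its groups did not overlap (log2 -2.54 ± 0.60, limma adjusted p = 0.107), but it passed the filter only through the wild-type arrays. It was called with the pair as a block (adjusted p = 0.00886, where 6.92% of genes were called) and without labelled-deficient replicate 2 (0.00408). Its size was poorly fixed, since leaving out 1 array gave log2 differences from -3.52 to -1.57, and other pseudocounts gave -3.31 and -1.60.

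Of the 3 receptor chains that pair with members from outside the family, 0 were called and 1 passed unadjusted. Crlf2 encodes the TSLP receptor chain, which pairs with the IL-7 receptor alpha chain. It read 2532 and 1790 on the labelled-deficient arrays, against 5264 and 3057 on the wild-type arrays, so that the groups did not overlap. Its log2 difference was -0.91 ± 0.31 (limma adjusted p = 0.292, but 0.0133 with the pair as a block). Il13ra1 and Il13ra2, chains of IL-13 receptors, gave signals of 88.6 or less on all 4 arrays.

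Below the receptors, 0 of 8 JAK, STAT and adaptor genes tested were called, with 2 at an unadjusted p under 0.05 and a median log2 difference of -0.04. Jak1, the kinase on the private chains, read 6977 and 6895 on the labelled-deficient arrays, against 4380 and 5346 on the wild-type arrays (log2 0.52 ± 0.20, limma adjusted p = 0.380). Jak3, the kinase on the gamma chain, read 735 and 293 on the labelled-deficient arrays, against 906 and 656 on the wild-type arrays (log2 -0.71 ± 0.42, limma adjusted p = 0.689). Stat3 and Stat5a differed by -0.28 ± 0.22 and -0.07 ± 0.29. Stat5b, named after its values were seen, read 2894 and 3055 on the labelled-deficient arrays, against 1735 and 2115 on the wild-type arrays. Its groups did not overlap on this brightest probe set, and it missed the threshold (log2 0.63 ± 0.22, limma adjusted p = 0.323). On another, dimmer Stat5b probe set the groups overlapped, at 248 and 160 on the labelled-deficient arrays, against 147 and 172 on the wild-type arrays. There the log2 difference was 0.30 ± 0.35 (limma adjusted p = 0.898), with 0.69 in pair 1 and -0.09 in pair 2.

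Among 13 targets and feedback inhibitors of STAT5, 1 was called higher, Bcl2, and 0 lower, with a median of 0.05. Bcl2, which protects lymphocytes from death downstream of IL-7, read 3364 and 6735 on the labelled-deficient arrays, against 1342 and 905 on the wild-type arrays. The groups did not overlap, and the difference was 4.27-fold (log2 2.09 ± 0.35, limma adjusted p = 0.0391). It missed the threshold without labelled-deficient replicate 2 (0.0769) and without wild-type replicate 2 (0.0511). Cish, an inhibitor induced by STAT5, read 3551 and 3635 on the labelled-deficient arrays, against 5795 and 8239 on the wild-type arrays. Its groups did not overlap either (log2 -0.94 ± 0.23, limma adjusted p = 0.121, but 0.0137 with the pair as a block and 0.0432 without wild-type replicate 1). The other inhibitors differed by less, with Socs1 at -0.58 ± 0.34, Socs2 at 0.07 ± 0.23 and Socs3 at -0.12 ± 0.23. With the block 2 of the 13 were called higher and 2 lower, Myc (adjusted p = 0.0147) and Ccnd3 (0.0328) being the others. Ccnd3 differed by -0.77 on its brightest probe set and by 1.07 on another, where the groups did not overlap either.

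Among 9 transcription factor genes known to act on Il7r or Il2ra, 2 were called higher and 0 lower. They were Foxo1, given above, and Foxp1, whose product is known in mouse T cells to oppose FoxO1 at Il7r. Foxp1 read 4717 and 3925 on the labelled-deficient arrays, against 1347 and 635 on the wild-type arrays. This was 4.58-fold higher (log2 2.20 ± 0.35, limma adjusted p = 0.0309, and 0.0594 without labelled-deficient replicate 1). Gfi1, a known repressor of Il7r in mouse T cells, read 1411 and 1505 on the labelled-deficient arrays, against 2340 and 2655 on the wild-type arrays. It missed the threshold (log2 -0.77 ± 0.23, limma adjusted p = 0.204) and passed with the pair as a block (0.0298). Satb1 differed in the other direction, being higher on the labelled-deficient arrays (log2 0.95 ± 0.26). It also missed the threshold (limma adjusted p = 0.168) and passed with the block (0.00852). Ets1, Gabpa and Gabpb1, of the ETS and GABP factors, differed by 0.23 ± 0.16, -0.22 ± 0.20 and -0.50 ± 0.41.

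Among 17 other type I and type II cytokine receptor genes tested, 1 was called higher and 1 lower, with a median of 0.06. Il6st, which encodes gp130, the signalling chain of the IL-6 receptor, read 3654 and 3770 on the labelled-deficient arrays, against 1673 and 1179 on the wild-type arrays (2.62-fold, log2 1.39 ± 0.25, limma adjusted p = 0.0454). Il6ra, the chain that binds IL-6, read 2506 and 803 on the labelled-deficient arrays, against 300 and 155 on the wild-type arrays. It missed the threshold (log2 2.62 ± 0.53, limma adjusted p = 0.0665) and passed with the pair as a block (0.000386). With 1 probe set per gene it passed narrowly (0.0495, where 2.57% of genes were called), while its second kept probe set differed by 0.38. Il12rb1, the chain shared by IL-12 and IL-23 receptors, read 382 and 370 on the labelled-deficient arrays, against 2519 and 1923 on the wild-type arrays. It was 5.64-fold lower on the labelled-deficient arrays (log2 -2.50 ± 0.26, limma adjusted p = 0.00736), and its call held without any 1 array. The Il6st call was lost when labelled-deficient replicate 1 (0.130), labelled-deficient replicate 2 (0.129) or wild-type replicate 2 (0.105) was left out, with a pseudocount of 1 (0.0523) and under quantile normalization (0.0502). Ebi3, a soluble cytokine subunit built like a receptor, missed the threshold at a log2 difference of -1.22 ± 0.25 (limma adjusted p = 0.0676). It passed with the block (0.00604) and with 1 probe set per gene (0.0411). Il10ra and Il10rb, chains of the IL-10 receptor, differed by -0.40 ± 0.28 and 0.08 ± 0.21, and Il12rb2 was under the filter. A second, dimmer Il10rb probe set differed by 1.07 ± 0.29 without overlap (limma adjusted p = 0.164, but 0.0288 with the block).

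**Figure D4:**
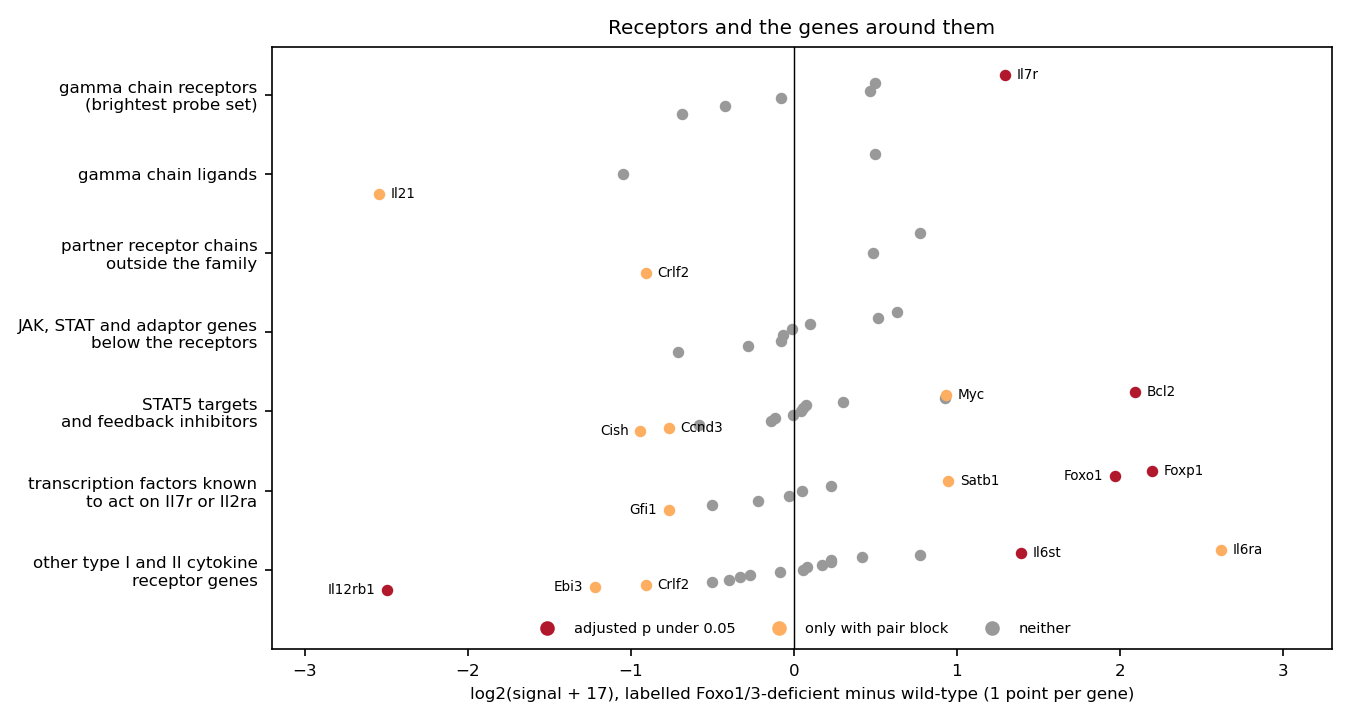
Log2 difference, labelled Foxo1/3-deficient minus wild-type, of the receptors and of 6 lists of genes around them, 1 point per gene at its brightest kept probe set, coloured by whether the gene passed without the pair as a block, only with it, or neither way. Foxo1, Foxp1, Bcl2, Il6st and Il7r lie to the right and Il12rb1 to the left, while the JAK and STAT genes lie within 0.71 of 0. The points furthest right and left are Il6ra, at 2.62, and Il21, at -2.54, which missed the threshold in the main fit and passed with the block.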

How the data were processed

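Expression was measured on 4 arrays (2 labelled Foxo1/3-deficient, 2 wild-type). The deposited values are linear intensities, 1 for each probe set, and MAS5 is the tool the submitters' processing notes name, with its version not given in the sources used here. Each array's 2% trimmed mean was 500.003, so no scaling was added, and the medians were 83.4 and 72.7 on the labelled-deficient arrays and 76.7 and 72.0 on the wild-type arrays. The values are not centred by gene. Of 45101 probe sets, 64 controls were left out. The annotation gave 1 symbol for 34945, several for 932 and none for 9160.

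A pseudocount of 17, the rounded 25th percentile of the signals, was added before taking log2, so changes at low signal are understated. Probe sets under the 40th percentile of mean log2 signal were left out. Groups from the titles were compared two-sided by lmFit and eBayes with trend (limma 3.58.1, R 4.3.3), with Benjamini-Hochberg adjustment over 27022 probe sets, and 2 residual degrees of freedom. The number of arrays limits the precision. The fit was tested on simulated data.

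The titles number the pairs. Deviations from group means correlated between same-numbered arrays (r = 0.282 across probe sets, 2 pairs). Alternatives were a block for the pair, other pseudocounts, filters, normalization, variance models, 1 probe set per gene and each array left out. The block leaves fewer residual degrees of freedom than the main fit, so its p-values lean even more on limma's shared variance model. Members and lists were chosen with earlier results of these data known. From each list, called genes and the first 4 others were named, and so were the 3 genes most like Il7r. Genes called with the block but not in the main fit were added after their values were seen. Stat5b, called in neither fit, was also added after its values were seen.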

Additional observations from a re-analysis of the deposited data

Results flagged for a closer look

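Il2rb moved in opposite directions in the pairs on both of its probe sets. On 1448759_at the log2 difference, labelled Foxo1/3-deficient minus wild-type, was 0.30 in pair 1 and -0.45 in pair 2. On 1417546_at it was 0.45 in pair 1 and -0.52 in pair 2. Each pair holds 1 array a label, so the difference between the pairs was not tested, and 40.8% of all kept probe sets also had opposite signs in the pairs.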

How the results depend on the processing

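The 12 alternatives kept the sign of each member probe set they could test except those of Il2rb, which without 1 array ranged from -0.29 to 0.23 (1417546_at) and from -0.35 to 0.19 (1448759_at). No member other than Il7r was called in any of them. The Il7r log2 differences stayed above 1, but both calls were lost without the filter (values of 1.30 and 1.89, as in the full analysis) and without the intensity trend (1.30 and 1.89). Leaving out 1 array gave Il7r values between 1.11 and 1.48 on 1448575_at and between 1.48 and 2.30 on 1448576_at, with 0 to 2 member probe sets called higher. With 1 array left in a group, that array is assumed to vary like the other group. Without the filter 38 probe sets were higher and 29 lower, 0 of them members, and 0 list genes were higher. Without the trend the counts were 47 and 51, again with 0 members and 0 list genes higher. Blocking on the pair gave 682 higher and 705 lower, with 7 list genes higher and 7 lower, and the block changed no member's call. With 1 probe set per gene, 1 member probe set was called, since only the brightest of Il7r was tested, and 2 list genes were lower. Leaving out 1 array gave 93 to 344 probe sets higher and 90 to 159 lower, and 1 to 6 list genes higher and 1 to 2 lower. Of list genes, Foxp3 turned to 0.025 under quantile normalization and ranged from -0.082 to 0.021 without 1 array, Stat5a from -0.34 to 0.21, Socs2 from -0.025 to 0.17 and Socs3 from -0.32 to 0.090. The causes of these shifts were not tested. Signals near the filter, as for Il15ra 1422397_a_at and the dimmer Il4ra probe sets, limit what could be detected there.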

Other observations

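Genes with several probe sets gave a further reading of the called list genes. All 5 kept Bcl2 probe sets had non-overlapping groups, higher on the labelled-deficient arrays, with log2 differences between 1.42 and 2.39, and 4 of the 5 were called (limma adjusted p between 0.0202 and 0.0797 over the 5). All 8 kept Foxp1 probe sets were likewise higher without overlap, between 1.04 and 2.43, and 4 were called (0.00967 to 0.296). Of 3 kept Il6st probe sets 2 were called, with values between 0.84 and 2.36. Rora, which encodes a nuclear receptor of T helper and innate lymphoid cells, was lower without overlap on all 6 kept probe sets, between -1.29 and -0.72, and 0 of them were called by limma without the pair as a block (0.0925 to 0.391), against 4 of the 6 with it (0.00307 to 0.0160 for those 4). Probe sets of a gene share the same arrays and RNA and are not replicates. Over all kept probe sets 38.3% had groups that did not overlap, 1.16% were called without the block and 5.13% with it.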
